A study of Mus musculus with 6 samples.

Results

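The genes described here are 9 markers and signalling genes of alternative macrophage activation: the surface lectins Mrc1, Mgl2 and Clec10a, the secreted proteins Retnla and Chil3, the receptor chains Il4ra and Il13ra1, and the transcription factors Stat6 and Pparg. They were taken by symbol, as all probe sets (groups of short oligonucleotides that together read 1 transcript) whose annotation lists a member gene and no other gene. This gave 16 probe sets for the 9 genes, out of 45037 probe sets and 18193 genes with a probe set of their own. RNA was measured on 6 one-colour Affymetrix arrays, 1 array per sample, all of mouse macrophages. An LPS pair held wild-type macrophages kept in medium (1 array) or treated with LPS, a bacterial cell wall component (1 array). The Trib1-line arrays all held LPS-treated macrophages, 2 wild type and 2 knockout for Trib1, each genotype numbered 1 and 2. Trib1 encodes a pseudokinase that directs C/EBP transcription factors to degradation. The series design uses the LPS pair to define LPS-inducible genes and the 4 Trib1-line arrays to compare the genotypes. The labels state no tissue of origin, strain, age, LPS dose or time, and they do not say whether like arrays came from separate animals, so every p-value measures only the spread between these samples.

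Interleukin 4 and interleukin 13 bind receptors that contain the IL-4 receptor alpha chain, paired with the common gamma chain or with the IL-13 receptor alpha 1 chain, and the bound receptor activates Jak kinases and the transcription factor STAT6. In macrophages STAT6 switches on a set of genes that includes the mannose receptor Mrc1, the resistin-like protein Retnla, the chitinase-like lectin Chil3, the galactose-type lectins Mgl2 and Clec10a and the nuclear receptor Pparg. LPS drives macrophages towards an inflammatory state instead, and these states are often read by opposite sets of marker genes.

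Values are scaled intensities: each array was multiplied so that its mean without the lowest and highest 2% of probe sets was 233.9. A floor of 29.9, the pooled 40th percentile, marks the level under which probe sets are treated as not measured, and each array had 57.9% to 63.0% of its probe sets over it. The log2 values of any pair of arrays correlated at 0.935 to 0.976 over probe sets (Pearson, a description only). All 7 macrophage markers, among them Adgre1, Csf1r and Cd68, were above the floor on every array. Trib1 measured 383.5 in medium and 189.3 after LPS, 17.9 and 17.5 for the Trib1-line wild type, and 88.1 and 20.9 for the knockout (probe set 1424880_at). The values 17.9, 17.5 and 20.9 are under the floor. A second probe set, 1424881_at, measured 37.1, 29.3, 20.2, 63.0, 32.3 and 38.7 on medium, LPS, wild type 1 and 2 and knockout 1 and 2. No source used here places either probe set inside or outside the deletion, so they check no label, and "knockout-labelled" is used throughout. The female-specific RNA Xist measured 1616 and 980.5 on the LPS pair and 2.03 to 5.56 on the Trib1-line arrays, while the Y-linked Eif2s3y measured 0.335 and 4.74 on the pair and 218.8 to 534.2 on the Trib1 line. The 2 sets of arrays thus also differed in these sex-linked RNAs, and in the scale on which their values were deposited (trimmed means of 500.0 for the pair and 95.5 to 106.6 for the Trib1 line).

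Il4ra, the signalling chain shared by the IL-4 and IL-13 receptors, had 3 probe sets. The leading one (1423996_a_at, with the highest mean) measured 1199 in medium, 1030 after LPS, 514.1 and 148.8 on wild type and 1084 and 169.2 on knockout-labelled arrays. On 1421034_a_at the same arrays measured 1286, 1006, 480.6, 183.8, 814.2 and 280.5. Both probe sets were higher on the arrays numbered 1 than on those numbered 2, in either genotype. The third, 1447858_x_at, was dim, from 15.9 on knockout 2 to 82.1 in medium.

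Il13ra1, the chain that pairs with Il4ra to bind IL-13, was among the steadiest members. Its leading probe set (1451775_s_at) measured 868.7 in medium, 943.5 after LPS, 766.0 and 1115 for the Trib1-line wild type and 1084 and 913.2 for the knockout-labelled arrays, which overlapped. Its other 4 probe sets measured 535.9 to 1148 over 3 of them and 64.8 to 134.6 on the dim 1425625_at. Stat6, the transcription factor that carries the IL-4 signal to the nucleus, measured 1631 in medium and 1172 after LPS, 1086 and 1085 on wild type, and 985.8 and 847.0 on knockout-labelled arrays (1426353_at). Its second probe set, 1421708_a_at, ran from 616.2 on knockout 2 to 1297 in medium.

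Pparg, a nuclear receptor that regulates fatty acid uptake and storage genes, was above the floor on 1 array. It measured 144.0 in medium and 21.2 after LPS, 6.09 and 5.77 on wild type, and 7.18 and 16.3 on knockout-labelled arrays, so all 5 LPS-treated arrays were under the floor and have no order.

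Mrc1, the macrophage mannose receptor that takes up glycoproteins with terminal mannose, measured 5430 in medium and 3503 after LPS. Wild type 1 and 2 of the Trib1 line measured 667.3 and 285.5, and knockout 1 and 2 measured 428.6 and 280.0. All 4 Trib1-line arrays lay below both arrays of the LPS pair, and the genotypes overlapped.

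Mgl2 and Clec10a encode C-type lectins that bind galactose and N-acetylgalactosamine, and the RefSeq annotation places them next to each other on chromosome 11. Clec10a measured 2183 in medium and 586.8 after LPS, 261.9 and 87.3 for the Trib1-line wild type and 182.4 and 42.8 for the knockout-labelled arrays. The medium array was the highest of the 6, and both Trib1-line arrays numbered 1 lay above both numbered 2. Mgl2 was dim throughout, with 132.6 in medium, 163.8 after LPS, 41.5 and 64.6 on wild type, and 65.4 and 72.9 on knockout-labelled arrays. The neighbours thus differed in pattern: Clec10a was lower after LPS within the pair, and Mgl2 was not.

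Retnla, which encodes the secreted resistin-like molecule alpha, was among the members with the widest range. Within the LPS pair it measured 3692 for medium and 4036 for LPS. Wild type 1 of the Trib1 line measured 27.8, under the floor, wild type 2 measured 792.0, and the knockout-labelled arrays 32.8 and 90.8. It was thus high on both arrays of the LPS pair whatever the treatment, intermediate on wild type 2 and near the floor on wild type 1 and knockout 1. The 2 wild-type arrays were at least 26.5-fold apart, and the knockout-labelled values lay between them.

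The promoter of Retnla is shown because, of the 8 members with a window in the RefSeq promoter table (GRCm38.p6, 250 bases before to 50 after the annotated start; 10 windows), it was the only one that held both motifs searched. These were the STAT6 motif TTCNNNNGAA and the C/EBP motif TTGCNNAA, each looked for on both strands. Capitals mark the matches, printed 5′ to 3′ on the gene's strand, and the motifs do not overlap.
Retnla, chr16:48842359-48842658, plus strand: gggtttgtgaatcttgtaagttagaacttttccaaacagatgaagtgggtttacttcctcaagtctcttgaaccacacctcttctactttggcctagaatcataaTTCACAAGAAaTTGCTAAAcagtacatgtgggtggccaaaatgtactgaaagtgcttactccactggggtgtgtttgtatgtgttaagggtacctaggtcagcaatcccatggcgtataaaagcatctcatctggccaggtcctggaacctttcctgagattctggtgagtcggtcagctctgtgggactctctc
Chil3, chr3:106167515-106167814, minus strand: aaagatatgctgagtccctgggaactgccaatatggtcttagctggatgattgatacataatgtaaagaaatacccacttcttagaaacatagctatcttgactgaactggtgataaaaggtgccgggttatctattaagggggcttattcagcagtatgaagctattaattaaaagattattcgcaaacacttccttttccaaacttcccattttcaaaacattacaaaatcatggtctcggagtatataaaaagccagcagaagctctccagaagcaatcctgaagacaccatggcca
In Retnla the STAT6 match began 145 bases and the C/EBP match 134 bases before the annotated start, with 1 base between them. Over all 32851 windows of this length, 6.95% held the STAT6 motif, 10.8% the C/EBP motif and 0.840% both. Chil3, the member with the largest genotype difference, held neither in this window and is printed for comparison. Of the other members with a window, Pparg held 2 C/EBP matches in 1 of its 3 windows, and Mrc1, Mgl2, Il4ra, Il13ra1 and Stat6 held none of either motif. No promoter is shown for Clec10a. A match is a string of letters only, and binding was not measured.

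Chil3, which encodes the secreted chitinase-like protein Ym1, was high on most arrays. Within the LPS pair it measured 4549 for medium and 4504 for LPS. Wild type 1 and 2 of the Trib1 line measured 2097 and 443.8, against 10591 and 1606 for knockout 1 and 2. Knockout 1 was the highest of all 6 arrays, but knockout 2 lay below wild type 1, so the genotypes overlapped. The neighbouring gene Chil4 encodes a close relative of Chil3, and a probe set annotated to both genes (1425451_s_at) measured 2279, 2403, 1128, 319.3, 5605 and 824.1 on medium, LPS, wild type 1, wild type 2, knockout 1 and knockout 2. Chil4 by its own probe set measured 33.7 to 96.6 across the 6 arrays. The shared probe set thus followed Chil3 in the order of all 4 Trib1-line arrays, while Chil4 alone stayed within a narrow range near the floor. The plot of member intensities by array shows all 9 genes side by side.

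**Figure D1:**
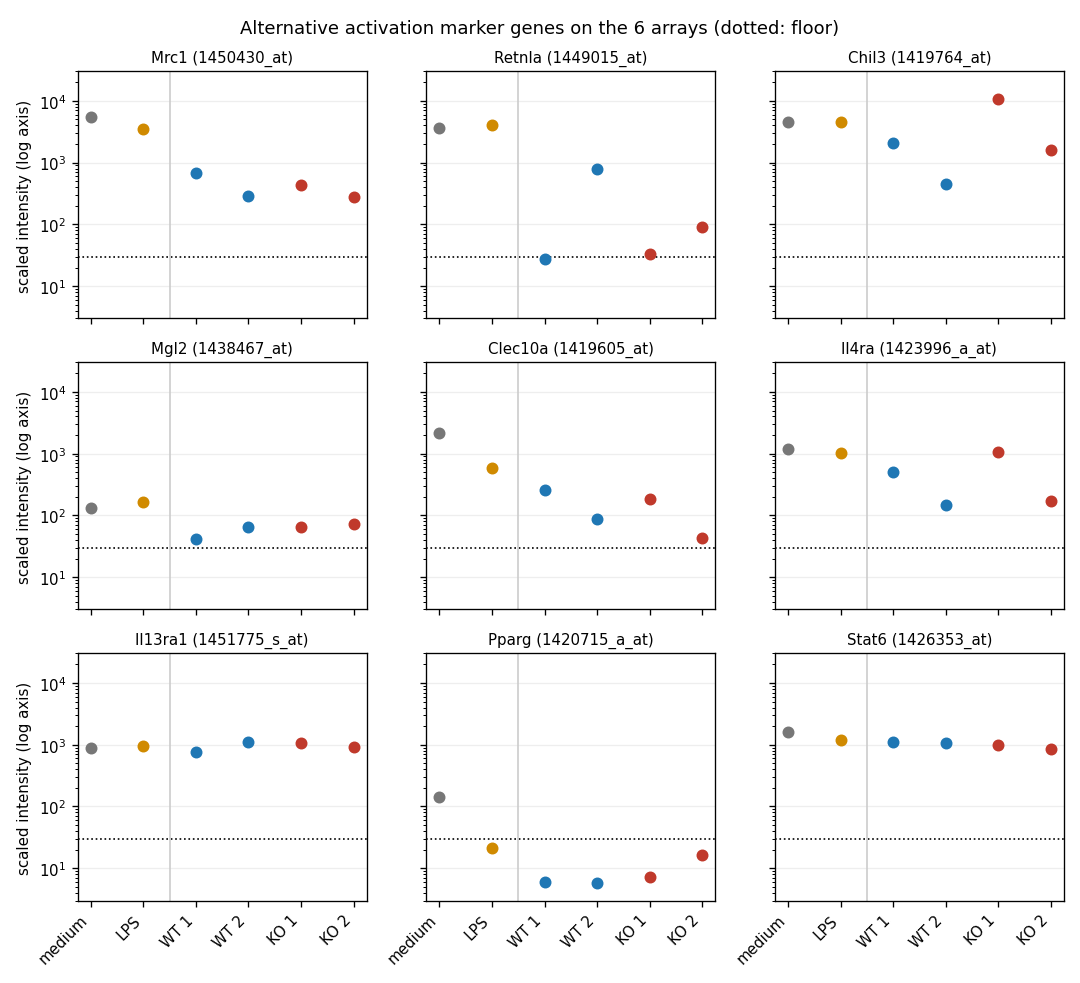
Scaled intensity (log axis) of the leading probe set of each of the 9 genes on each array; grey is medium, orange LPS, blue wild type (WT) and red knockout-labelled (KO) Trib1-line arrays, 1 point per array, with the floor of 29.9 dotted. Mrc1, Retnla and Clec10a were highest on the LPS pair, Chil3 was highest on knockout 1 at 10591, and Il13ra1 and Stat6 varied little.

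LPS against medium, with 1 array each, has no error, and a probe set was counted as past the rule at a ratio of at least 4. Pparg was the only member past it, at least 4.82-fold lower after LPS (log2 -2.27 against the floor). Clec10a lay just short of the limit at 3.72-fold lower (log2 -1.90), and Mrc1 was 1.55-fold lower (log2 -0.63). For the receptor chains and Stat6 the log2 ratios were -0.48 and -0.49 for the 2 Stat6 probe sets, -0.73 to -0.22 for Il4ra (-0.73 on its dim probe set) and -0.28 to 0.12 for Il13ra1. Retnla (log2 0.13, or -0.03 after quantile normalization), Chil3 (-0.01) and Mgl2 (0.31) lay close to their medium level. Of the 16 member probe sets 0 were at least 4-fold higher, against 0.986% of all 29115 measured on either array. At least 4-fold lower were 1 of 16, against 0.598%, and at least 2-fold lower were 2 of 16, against 6.29%. The median log2 ratio was -0.28 over the member probe sets and -0.09 over all.

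For Mrc1, Clec10a, Retnla, Chil3, Mgl2 and Il4ra, both wild-type Trib1-line arrays, also given LPS, lay below the medium array and the LPS array of the pair. Stat6 did so by less, with log2 -0.59 to medium on both for its leading probe set, against -0.48 on the LPS array. Mrc1 was 8.14-fold and 19.0-fold below medium on wild type 1 and 2, Chil3 2.17-fold and 10.2-fold, and Il4ra 2.33-fold and 8.06-fold. Clec10a differed from medium by log2 -3.06 and -4.64. Retnla was at least 123.5-fold below medium on wild type 1 and 4.66-fold on wild type 2. Il13ra1 stayed close to medium on both (log2 -0.18 and 0.36), as the plot of ratios to medium shows. When medium was compared with all 3 wild-type LPS arrays by limma, 0 of 15 member probe sets tested passed a Benjamini-Hochberg adjusted p of 0.05, against 0.0106% called lower among 28430. At an unadjusted p under 0.05, 2 of 15 were lower, against 4.51% of all, and 0 higher, against 3.65%. The 2 were Clec10a (log2 -3.20, SE 0.91; limma adjusted p = 0.355) and a Stat6 probe set (log2 -0.77, SE 0.31; limma adjusted p = 0.590). In this fit the lone medium array is assumed to vary like the LPS arrays. The LPS side also includes both wild-type Trib1-line arrays, so the fit mixes LPS with the difference between the sets of arrays.

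**Figure D2:**
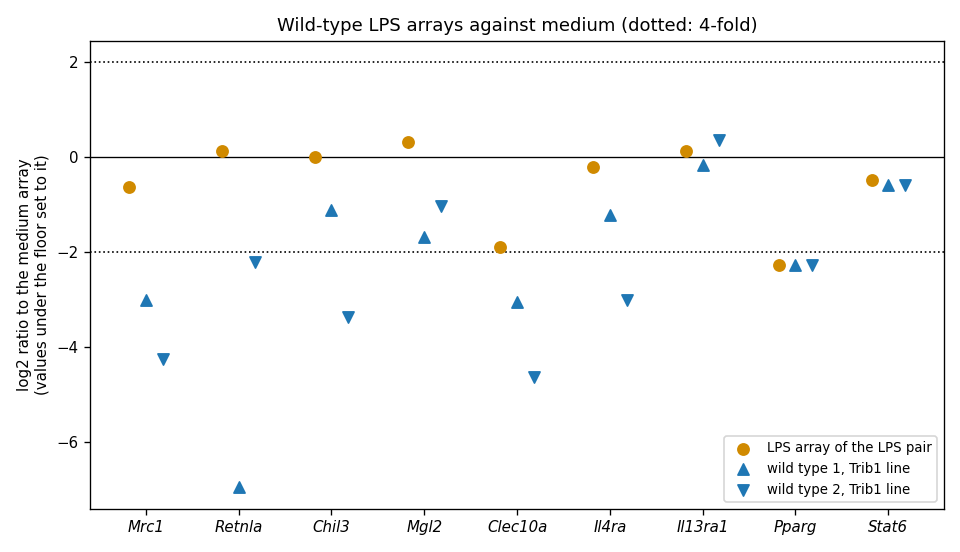
Log2 ratio of each wild-type LPS array to the medium array for the leading probe set of each gene, with values under the floor set to it; circles are the LPS array of the LPS pair, triangles wild type 1 (upright) and wild type 2 (inverted) of the Trib1 line, and dotted lines mark 4-fold. On the LPS array of the pair Pparg alone passed the line, while Mrc1, Retnla, Clec10a and, at the floor, Pparg passed it on both Trib1-line arrays.

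Arrays with the same label of wild type and LPS therefore differed widely in these genes, a comparison made after the values were seen. The LPS array of the pair was at least 4-fold above both wild-type Trib1-line arrays for 2 of 15 member probe sets above the floor on any of these 3 arrays, against 0.412% of 32284. These were Mrc1 (5.25-fold and 12.3-fold) and Retnla (at least 135.1-fold and 5.10-fold). Clec10a was 2.24-fold and 6.72-fold higher and Chil3 2.15-fold and 10.1-fold. Stat6 (1.08-fold against both) and Il13ra1 (1.23-fold and 0.846-fold) differed least. The experiment, the sex-linked RNAs, the deposited scale and any difference in treatment coincide in these 2 sets and cannot be told apart.

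Some markers of other cell types also differed between the sets. The summed intensity of 4 B cell markers was 1268 and 2319 on the pair and 252.3 to 583.8 on the Trib1 line, with all 4 (Cd79a, Cd79b, Ms4a1, Pax5) above the floor on every array. The 5 eosinophil markers summed to 163.6 and 287.4 on the pair and 82.0 to 163.2 on the Trib1 line, so medium and wild type 2 lay together. At most 3 of 5 were above the floor on any array, and the eosinophil chemokine receptor gene Ccr3 was under it on all. Siglecf was higher on the pair (65.0 and 158.9, against 7.63 to 42.1), and Il5ra was highest on the LPS array of the pair (78.2). Prg2 and Epx were instead highest on wild type 2 (48.7 and 34.4). The sum of the 7 macrophage markers was 63207 to 72409, with Lyz2 and Cd68 the largest parts. Single members moved more. Mertk measured 2517 in medium and 7314 to 9271 on the LPS-treated arrays, and Fcgr1 6833 against 2809 to 3560. The 6 dendritic cell markers summed to 1304 and 2004 on the pair and 1672 to 4744 on the Trib1 line, with 3 to 6 above the floor. Most of each sum was Itgax, with 1057 and 1414 on the pair and 1244 to 4055 on the Trib1 line. Of 5 dendritic cell markers measured in the pair, 1 was at least 4-fold higher after LPS, against 0.986% of all probe sets. This was Ccr7 (69.7 to 381.4, 5.47-fold). The part of these cells in the member values was not tested, and in bulk RNA fewer cells of a type and less RNA per cell cannot be told apart.

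Between the genotypes after LPS, no member probe set passed the test in the main fit, which takes the arrays as unpaired. Chil3 had the largest difference, 4.28-fold higher on knockout-labelled arrays (log2 2.10, SE 1.06, n = 2 per genotype, 95% interval -0.53 to 4.72; limma, Benjamini-Hochberg adjusted p = 0.999). The 2 wild-type arrays were 4.72-fold apart and the 2 knockout-labelled arrays 6.59-fold, wider than the difference itself. Between arrays of like number the log2 differences were 2.34 and 1.86. With the number as a block, Chil3 had an SE of 0.15 (limma adjusted p = 0.00743), and 116 probe sets passed in all. No label states this pairing, and 2 pairs cannot check it. Without knockout 2 the difference was 3.46 (SE 0.61, limma adjusted p = 0.0394), and without wild type 1, knockout 1 or wild type 2 it was 3.22, 0.74 or 0.98, with limma adjusted p of 0.718, 1.000 and 1.000. The probe set shared with Chil4 had a log2 difference of 1.84 (SE 1.00).

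The other members had smaller or less certain differences. Retnla had a log2 difference of -1.49 (SE 1.51, interval -5.23 to 2.24), which ranged from -3.86 without wild type 1 to 0.87 without wild type 2. Clec10a had -0.77 (SE 0.84), Mrc1 -0.33 (SE 0.46) and Mgl2 0.42 (SE 0.38, interval -0.53 to 1.36). Among the signalling genes, Il4ra had 0.63 (SE 0.98) on its leading probe set and 0.69 (SE 0.65) on the second. Il13ra1 had 0.11 (SE 0.25, interval -0.50 to 0.72), and its other probe sets 0.28 to 0.30. Stat6 had -0.25 (SE 0.18, interval -0.70 to 0.20) and -0.13 (SE 0.19). The intervals of the leading Stat6 and Il13ra1 probe sets stay within a 2-fold difference either way, whereas those of Retnla, Chil3, Clec10a and Il4ra leave room for differences of several-fold. On the Il13ra1 probe sets 1427165_at, 1454783_at and 1425625_at the upper limits were log2 1.06, 1.03 and 1.42, past 2-fold.

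Of the 15 member probe sets tested (8 genes, Pparg being under the floor on all 4 arrays), limma called 0 at an adjusted p under 0.05, as it did 0 of 29078 overall (0%). At an unadjusted p under 0.05, 0 members passed, against 4.99% of all. With both arrays of 1 genotype at least 2-fold beyond both of the other there were 0 members, against 0.719%. The genotypes did not overlap for 3 of 15, Mgl2 higher and both Stat6 probe sets lower on knockout-labelled arrays, against 31.7% of all probe sets, and these separations were small. Differences were above 0 for 10 and below 0 for 5 of the 15, where 8 probe sets come from Il4ra and Il13ra1 alone, with a median of 0.28 against -0.01 for all. Over the leading probe sets of the 8 genes the median was -0.07. For a single gene, exactly permuting the labels of these 4 arrays gives at the smallest a two-sided p of 0.333.

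**Figure D3:**
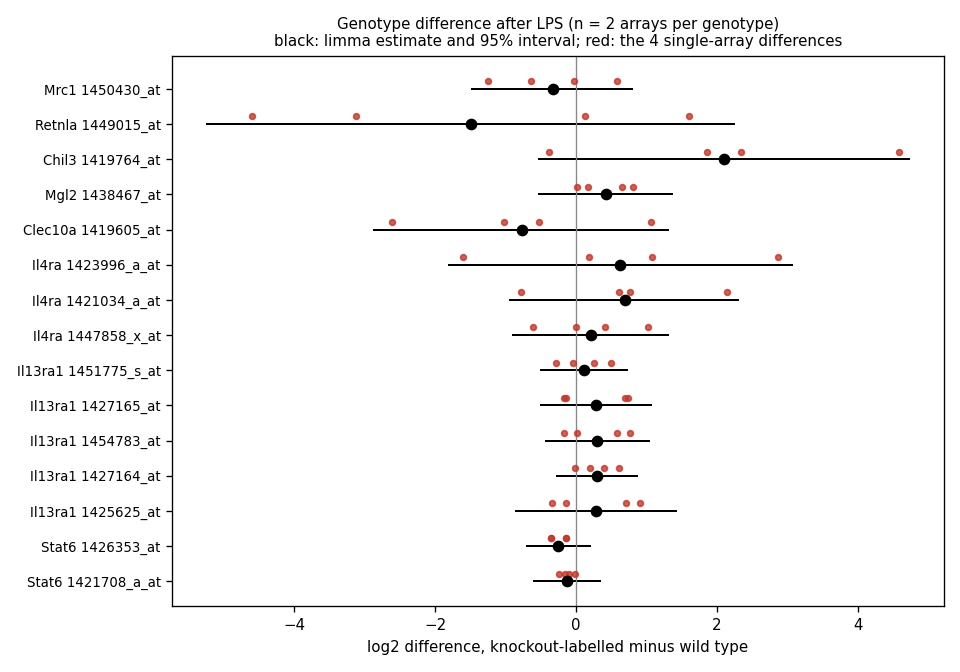
Log2 difference of knockout-labelled minus wild-type Trib1-line arrays after LPS for the 15 member probe sets tested; black points and lines are the limma estimate with its 95% interval (n = 2 arrays per genotype), and red points are the 4 differences between single arrays. All intervals cross 0; Retnla, Chil3, Clec10a and Il4ra have the widest, and the red points of Stat6 lie closest together.

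Some markers of other cells differed with genotype beside these values. The 7 mast cell markers summed to 749.3 and 1087 on wild type and 210.7 and 311.2 on knockout-labelled arrays, with 5, 7, 3 and 5 of them above the floor on wild type 1, wild type 2, knockout 1 and knockout 2. Of 6 tested, 4 were lower at an unadjusted p under 0.05, against 4.99% of all probe sets in either direction. These were the protease genes Cpa3, Cma1 and Tpsb2 and the IgE receptor gene Fcer1a, none passing the adjusted test (limma adjusted p of 0.787 to 0.891). Ms4a2 had a log2 difference of -0.68 (SE 0.34) and Kit -0.02 (SE 0.56), with the genotypes overlapping for Kit, and Mcpt4 was not tested. The 5 T and NK cell markers summed to 1783 and 1595 against 350.5 and 386.7, with 2 to 4 of 5 above the floor. The largest part of each sum was Klrk1, an activating receptor gene of NK and T cells, with 1671 and 1485 on wild type and 230.3 and 263.3 on knockout-labelled arrays (log2 -2.68, SE 0.20, limma adjusted p = 0.216). Of the others, Cd3e had a log2 difference of -0.13 (SE 0.27) and Ncr1 0.08 (SE 0.35), and Cd3d and Cd3g were not tested. The 7 mesothelial and stromal markers summed to 952.5 and 1032 against 1423 and 3250, with 4 to 6 above the floor. Of 5 tested, Col1a1 and Dcn were higher at an unadjusted p under 0.05 (log2 1.66 and 0.99, limma adjusted p of 0.964 and 0.950). The 5 neutrophil markers summed to 280.3 and 286.6 against 602.3 and 252.8, with 3 to 5 above the floor, so these sums overlapped. Of 4 tested, 1 was higher and 1 lower at that threshold. Camp measured 11.0 and 7.03, under the floor, against 219.9 and 66.9 (log2 2.02). Ltf measured 87.0 and 87.2 against 40.2 and 12.7 (log2 -1.33). Dendritic cell markers summed to 3397 and 4744 against 1672 and 2641, and B cell markers to 473.5 and 583.8 against 252.3 and 372.0. Itgax made up most of the dendritic cell sums, with 3031 and 4055 against 1244 and 2233. The log2 differences were -0.47 for Ccr7 and -0.50 for Cd209a, but 0.04 for Flt3, 0.18 for Zbtb46 and 0.00 for Xcr1. Of the 7 macrophage markers, 1 was higher and 0 lower at an unadjusted p under 0.05. This was Itgam, with 1441 and 1555 on wild type and 2256 and 2411 on knockout-labelled arrays (log2 0.64, SE 0.16, limma adjusted p = 0.899). The plot of marker lists gives all 8 lists. Their part in the member values was not tested.

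**Figure D4:**
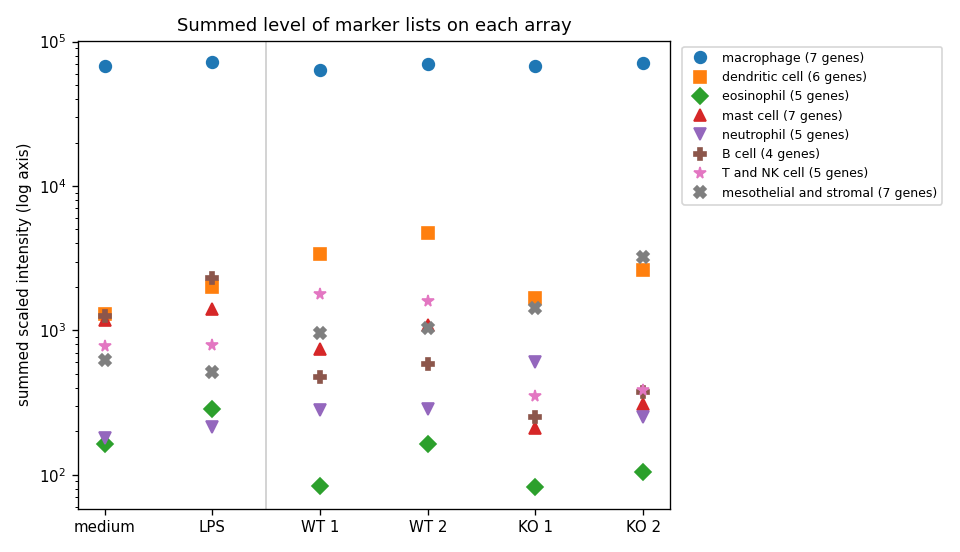
Summed scaled intensity (log axis) of 8 lists of cell type markers on each array, 1 point per list and array. Macrophage markers summed to 63207 to 72409, with Lyz2 and Cd68 the largest parts, and B cell markers were highest on the LPS pair. The sums of mast cell and of T and NK cell markers were lower on both knockout-labelled arrays than on both wild-type arrays. Klrk1 was the largest part of the T and NK cell sums, and Cd3e and Ncr1 differed little between genotypes.

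Other genes of the IL-4 and IL-13 pathway were read by their leading probe sets. Of 20 cytokines, receptor chains, kinases, adaptors, phosphatases and inhibitors listed, 19 had a probe set of their own. The exception was Il2rg, the gene of the common gamma chain. The cytokine gene Il13 and the adaptor gene Irs2 were under the floor on all arrays. After LPS the median log2 ratio was 0.10 over 16 measured genes. Of these, 1 was at least 4-fold higher and 0 lower, against 0.986% and 0.598% of all probe sets. That gene was Cish, a STAT5-induced inhibitor of cytokine signalling, which went from 368.3 to 2057 (5.59-fold) in the pair, whereas wild type 1 and 2 of the Trib1 line measured 297.1 and 360.7. Between genotypes 0 of 17 passed limma's adjusted test. At an unadjusted p under 0.05, against 4.99% of all probe sets in either direction, 0 were higher and 2 lower. Ptpn6, the phosphatase SHP-1 that restrains Jak signalling, measured 5380 and 5966 on wild type and 2935 and 4109 on knockout-labelled arrays (log2 -0.71, SE 0.21, limma adjusted p = 0.950). Pik3r1, a regulatory subunit of phosphoinositide 3-kinase, measured 412.8 and 398.1 against 266.5 and 236.8 (log2 -0.69, SE 0.23, limma adjusted p = 0.950). For both genes the genotypes did not overlap.

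Of 31 further IL-4 target and alternative activation genes measured in the LPS pair, 2 were at least 4-fold higher and 2 lower. Over all probe sets these shares were 0.986% and 0.598%. The median log2 ratio of the 31 genes was -0.01. Ccl22, a chemokine for T helper and regulatory T cells, was 6.59-fold higher (159.2 to 1049), and Ch25h, cholesterol 25-hydroxylase, 6.05-fold higher (2161 to 13081). Cd200r1, an inhibitory receptor of myeloid cells, was 4.91-fold lower (2317 to 471.9), and Flt1, a receptor for vascular endothelial growth factor, at least 4.04-fold lower (120.6 to 22.5). On the wild-type Trib1-line arrays Flt1 measured 182.3 and 123.4, above medium, and Cd200r1 516.2 and 409.9.

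Between genotypes, 3 of 29 of these genes were higher and 5 lower at an unadjusted p under 0.05, and 0 passed the adjusted test. Over all probe sets 4.99% had an unadjusted p under 0.05 in either direction. Stab1, a scavenger receptor of tissue macrophages, measured 143.0 and 92.5 on wild type and 549.8 and 551.5 on knockout-labelled arrays (log2 2.26, SE 0.30, limma adjusted p = 0.766), the only gene of the list with groups at least 2-fold apart. Rnase2a, an eosinophil-type ribonuclease, measured 37.4 and 26.4 against 60.6 and 90.9 (log2 1.15). Egr2, a transcription factor induced by IL-4, measured 947.2 and 948.5 against 573.5 and 529.5 (log2 -0.78, limma adjusted p = 0.874), and Ppargc1b, a coactivator of mitochondrial genes, 492.5 and 354.6 against 147.6 and 223.1 (log2 -1.20). Ccl22, Pdcd1lg2 and Alox15 were also lower at a limma unadjusted p under 0.05 (log2 -1.08, -0.89 and -1.09). Arg1, the arginase of alternatively activated macrophages and named after its values were seen, measured 11349 in medium and 5057 after LPS. On the Trib1 line it measured 1135 and 250.1 on wild type and 4767 and 1626 on knockout-labelled arrays (log2 2.39, SE 0.81, limma adjusted p = 0.951). Like Chil3 it was higher on wild type 1 than on wild type 2 and highest of the Trib1 line on knockout 1.

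Of 16 measured PPAR-gamma partners and targets, 0 were at least 4-fold different in the LPS pair, with a median log2 ratio of -0.12. Over all probe sets 0.986% were at least 4-fold higher and 0.598% lower. Fabp4, a fatty acid binding protein, measured 4542 in medium and 4732 after LPS. Between genotypes 0 of 18 passed limma's adjusted test. At an unadjusted p under 0.05, against 4.99% of all probe sets in either direction, 0 were higher and 2 lower. These were Fabp4 (1734 and 2149 on wild type, 1412 and 1282 on knockout-labelled arrays; log2 -0.52, limma adjusted p = 0.965) and Lpl, lipoprotein lipase (7648 and 16713 against 2639 and 7019; log2 -1.39, limma adjusted p = 0.994). In the list of close relatives of members, 0 of 8 measured passed 4-fold after LPS and 0 of 8 tested passed the genotype test. At an unadjusted p under 0.05 there was 1 of 8, against 4.99% of all probe sets in either direction. This was Stat2, a relative of Stat6 that acts in interferon signalling (2658 and 2594 on wild type, 1616 and 2036 on knockout-labelled arrays, log2 -0.53, limma adjusted p = 0.957). Retnlb, which flanks Retnla in the annotation, was under the floor on all arrays.

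The 3 genes whose log2 values followed each member most closely over the 6 arrays were also listed, among 12597 genes with a leading probe set above the floor on at least 4 arrays (Pearson r of 0.982 to 0.998, a description with no test). They were Chaserr, Azin1 and Icam2 for Mrc1, Hnrnpul2, Slc26a6 and Dmap1 for Retnla, Panx1, Brd1 and Inf2 for Chil3, and Gnai3, Trmt13 and Clip3 for Mgl2. For Clec10a they were Nbdy, Dapp1 and Dctn6, for Il4ra Vapa, Rcbtb2 and Gstm5, for Il13ra1 Sirt6, Ecm2 and Tm4sf5, and for Stat6 Jup, Fto and Aga. Icam2, an adhesion molecule gene, measured 463.4 and 365.4 on the LPS pair and 65.3 to 103.0 on the Trib1 line, high on the pair and low on the Trib1 line as for Mrc1. Most followed the shape over a far smaller range: Panx1 ran from 159.5 to 228.5 where Chil3 ran from 443.8 to 10591. With 6 arrays that fall into 2 sets, such likeness describes these arrays only.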

How the data were processed

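The authors deposited 1 linear intensity per probe set and array, made with MAS5 per the submitters' processing notes; its version is not given in the sources used here. Of 45101 probe sets, 64 controls were removed, and of the remaining 45037 the platform annotation gives 34945 a single gene symbol, 932 several and 9160 none, with 34741 gene identifiers found in the RefSeq table (GRCm38.p6). Each array was rescaled to a trimmed mean of 233.9 (without the lowest and highest 2%), values under 29.9 were set to it, and log2 was taken. Genotypes were compared on the 4 Trib1-line arrays by limma 3.58.1 (R 4.3.3; lmFit, then eBayes with an intensity trend, 2 residual and 3.68 prior degrees of freedom), two-sided. Benjamini-Hochberg adjustment ran over the 29078 probe sets that exceeded the floor on 2 or more of those arrays, with a threshold of 0.05. The fit was tested on simulated data. LPS against medium has 1 array each and no test. Groups and numbers come from the sample titles. The number of arrays limits the precision.

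Genes named were all members, and genes of each other list by the probe set with the highest mean. From each other list these were up to 4 genes at least 4-fold different after LPS. Up to 4 more had the smallest unadjusted p under 0.05 between genotypes. Arg1 and Chil1 were added after their values were seen, as were further list genes such as Kit, Cd3e and Alox15. The members and lists were chosen with earlier results of these data known. Promoter windows were searched for the motifs as plain text on both strands. The 3 genes most like a member had the highest Pearson correlation with it. Tried as alternatives were unscaled values, quantile normalization, lower and higher floors (percentiles 25 and 60), a pseudocount of 16, no filter, no trend, the array number as a block, each array left out, the LPS array as an added wild type, other probe sets, a 2-fold rule and other LPS arrays; the comparison of the LPS pair with the Trib1-line wild type was added after the data were seen. Figures used Python 3.11.15 with matplotlib 3.10.9.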

Additional observations from a re-analysis of the deposited data

How the results depend on the processing

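With the array number as a replicate block, 116 probe sets passed between genotypes (85 higher, 31 lower) in place of 0, with 1 of 15 members passing the adjusted and 4 the unadjusted threshold, the latter against 11.2% of all probe sets; Chil3 then had a log2 difference of 2.10 (SE 0.15, limma adjusted p = 0.00743). No label states this pairing; array deviations from the group means correlated at 0.35 between like numbers, which with 2 pairs is no check. Leaving out 1 array gave 5 to 68 calls over all probe sets, 0 to 1 among members, and 1 to 4 of the 14 or 15 members tested at an unadjusted p under 0.05, against 4.03% to 5.86% of all probe sets (4 of 15 against 5.86% without knockout 2). The difference then ranged from -0.95 to 0.28 for Mrc1, -1.82 to 0.27 for Clec10a (0.02 without wild type 1), -0.16 to 0.38 for Il13ra1, -3.86 to 0.87 for Retnla and -0.71 to 1.97 for Il4ra, changing sign in each with no call. Mgl2 had -0.14 with the LPS array added as wild type. For LPS against medium, a floor at the 25th percentile gave 501 probe sets higher and 465 lower, and one at the 60th gave 85 lower with 0 members. A 2-fold rule gave 1461 and 1832, with 2 members lower. Wild type 1 in place of the LPS array gave 370 lower and 4 members lower, wild type 2 gave 447 higher, 489 lower and 7 members lower, and limma with 3 LPS arrays 45 higher and 3 lower, with 0 members. Chil3 aside, no member passed the adjusted genotype test in any of these fits. The cause of these changes was not tested beyond their construction. The small number of arrays and, for Mgl2 and Pparg, signal near the floor limit precision.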

Other observations

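Chil1, a chitinase-like relative of Chil3 that lies in the list of close relatives and was singled out after its values were seen, measured 6.60 for medium and 37.3 for LPS within the pair. On the Trib1-line arrays it measured 33.5 on wild type 1, 5280 on wild type 2, 3893 on knockout 1 and 11662 on knockout 2. It was high on both knockout-labelled arrays and near the floor on wild type 1, but wild type 2 lay between them (a log2 difference of 4.00 with SE 2.22 and limma adjusted p = 0.999 over 2 arrays a genotype). Chil3 ran otherwise, with wild type 2 the lowest of the 4 at 443.8.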
